A study of Mus musculus with 12 samples.

Results

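The genes described here are the interleukins, colony stimulating factors, chemokines, tumor necrosis factor (TNF) family members and receptors of the nCounter Myeloid Innate Immunity Panel, apart from a set left out by name. Members are the endogenous probes whose gene symbol starts with Il and a digit, Ccl, Ccr, Cxcl, Cxcr, Cx3c, Csf or Tnf, after 16 of the 106 such genes, among them Il6, Il13, Tnf, Csf2 and Ccl3, are left out. This leaves 90 members of the 734 endogenous genes on the panel. The rule is written in gene symbols, but the genes left out were named with earlier results of these data known. It also takes in genes with such a symbol that are neither a cytokine nor a receptor, namely Il4i1, Tnfaip3, Tnfaip6 and Tnfaip8. Ccl21a and Ccl27a have near-identical copies in the mouse genome, and the counts do not tell the copies apart.

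RNA was counted in bone marrow-derived mast cells (BMMCs), which are primary cells grown from the marrow of C57BL/6 mice aged 6 to 8 weeks, kept for at least 4 weeks in medium with Il-3. All cells carried a zsGreen reporter inserted by Cas9 and homology-directed repair and were sorted for it. The insertion sat in exon 2 of Kit in the cells labelled c-Kit KO, which serve as the edited control, and in exon 1 of Mettl3, the methyltransferase that places N6-methyladenosine on mRNA, in the cells labelled Mettl3 KO. The control is thus meant to lack the receptor for stem cell factor, which was not added to the cultures, and no unedited cells were measured here. Each genotype was left resting or was exposed to IgE and its antigen for 4 h, which gave 4 groups of 3 biological replicates and 12 libraries.

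Mast cells carry IgE on a high-affinity receptor, and its crosslinking by antigen leads to degranulation and to the transcription of cytokine and chemokine genes through calcium, MAP kinase and NF-kB signalling. Many interleukins and colony stimulating factors act on receptors that signal through JAK and STAT proteins, and receptors of the Il1 and Il18 family signal through Myd88. Chemokines attract leukocytes through receptors coupled to G proteins, and TNF family ligands act on receptors that recruit TRAF proteins or death domain adaptors.

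Library totals over endogenous probes ran from 504238 to 737910 counts. Background, read from 8 negative control probes, averaged 7.13 to 22.8 counts per library, and the highest single control had 10 to 38 counts. A normalized count below is the deposited count divided by the library's factor from 20 housekeeping probes. The panel has no Mettl3 probe. The Kit probe lies downstream of the edited exon. The inserted cassette ends in a polyA and stop sequence meant to disrupt the gene. Kit nevertheless reached 20 counts in all 12 libraries, so its RNA counts alone do not bear out the labels, and the reason was not tested. The study reports loss of the c-Kit protein by staining in sorted Kit-targeted cells, and counts of RNA do not measure protein. Kit normalized counts were below those of the matching Mettl3 KO library for c-Kit KO replicate 1 at rest and for all 3 stimulated replicates, and above them for replicates 2 and 3 at rest. The mast cell identity was borne out by its markers, since all 11 genes of the list were detected, and their summed normalized counts were 355331 to 504071 without and 165872 to 305024 with stimulation. Of the macrophage or monocyte list, 7 of 10 genes on the panel were detected, Cd14, C1qb and Mertk were not, and the sum was 274 to 292 in unstimulated and 203 to 331 in stimulated libraries labelled c-Kit KO, against 253 to 447 and 257 to 486 in those labelled Mettl3 KO. Cd68 alone had 65.9 to 339 normalized counts. In bulk RNA, fewer cells of a type and less RNA per cell cannot be told apart.

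A member was tested where it reached 20 counts in at least 3 of the 12 libraries, which held for 56 of the 90 members, and the other 34 are called not detected. Of these 34, 19 reached 20 counts in no library, 8 in 1 library and 7 in 2 libraries. Of the receptors for interleukins, 11 of 13 were tested and 7 of these had 20 counts or more in every library. Among CC chemokines 9 of 15 were tested, among CXC and CX3C chemokines 7 of 12, among interleukins 8 of 16, and among receptors of the TNF family 5 of 8. Both TNF family ligands were tested.

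**Figure D1:**
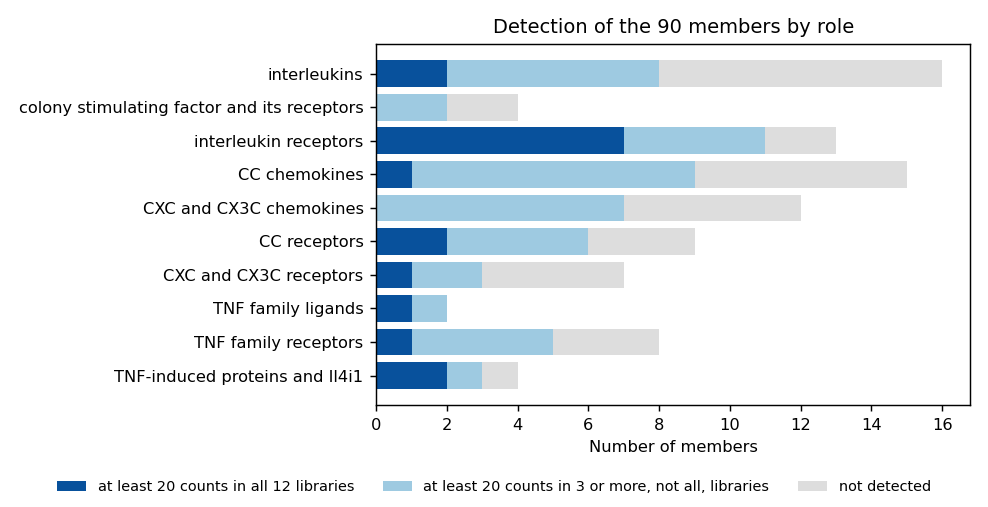
Number of members by role, split by detection (x axis, number of genes). Dark bars are members with at least 20 counts in all 12 libraries, light bars those with at least 20 counts in 3 or more but not all libraries and grey bars those not detected, and the longest dark bar is that of interleukin receptors, with 7 genes.

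The interleukins not detected were Il10, Il12a, Il18, Il1rn, Il22, Il23a, Il33 and Il5, and the interleukin receptors not detected were Il5ra and Il6ra. Csf2ra and Csf3r were not detected either, so that of the colony stimulating factor genes in this set Csf3 and Csf1r remained, both near the level of the negative controls. Among chemokines, 6 of the CC class (Ccl11, Ccl19, Ccl20, Ccl27a, Ccl28 and Ccl8) and 5 of the other classes (Cx3cl1, Cxcl1, Cxcl12, Cxcl13 and Cxcl16) were not detected. The same held for chemokine receptors that include Ccr4, Ccr8, Cxcr1, Cxcr2, Cxcr4 and Cxcr6, for Tnfrsf11a, Tnfrsf1a and Tnfrsf8, and for Tnfaip6. The highest deposited count among these genes was 54, for Il5, the eosinophil growth factor, which lay at 39.6 normalized counts in replicate 3 of stimulated c-Kit KO cells and at 3.47 to 15.7 in the other 11 libraries. Among the 56 tested members, 41 exceeded the highest negative control probe in at least 3 libraries and 15 in fewer, so the values of those 15 (for example Csf1r, Cxcl3, Cxcr3 and Il4i1) cannot be told from background.

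Stimulation changed 15 of the 56 tested members in libraries labelled c-Kit KO at an adjusted p under 0.05, 11 higher and 4 lower, and 18 in libraries labelled Mettl3 KO, 14 higher and 4 lower (quasi-likelihood test of edgeR, Benjamini-Hochberg adjusted over 545 genes). Of all 545 tested genes, 12.1% were higher and 6.97% lower in the first comparison, and 21.5% were higher and 10.8% lower in the second. With TMM scaling 9 members were higher and 4 lower in c-Kit KO cells and 17 and 4 in Mettl3 KO cells, and DESeq2 gave 16 and 3 and 17 and 5. Whether the members' shares differ from those of all genes was not tested. At the thresholds of the study's methods, which are a 1.5-fold change and an unadjusted p of 0.05, 22 members passed in c-Kit KO cells (33.8% of all tested genes did) and 23 in Mettl3 KO cells (41.7% of all). The median log2 fold change over the members was 0.00 in c-Kit KO cells, against -0.05 over all genes, and 0.23 in Mettl3 KO cells, against 0.02.

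Of the called genes, 13 were called in both, and all 13 changed in the same direction. Higher in both were Ccl12, Ccl17, Ccl5, Ccr1, Cxcl14, Il1a, Il1b, Il21r, Tnfrsf9 and Tnfsf10, and lower in both were Cx3cr1, Il15 and Il4ra. Cxcl5 and Il9 passed in c-Kit KO cells alone, and Cxcl2, Il10ra, Il3ra, Il4 and Tnfaip3 in Mettl3 KO cells alone, but the difference between the responses, tested as an interaction, was below the threshold for every member (0 called, smallest adjusted p = 0.993 by edgeR, with 1 member at an unadjusted p under 0.05, which was Cxcl2). This split also depends on the fit. With the replicate number as a block in edgeR, Il10ra (adjusted p = 0.0238) and Tnfaip3 (adjusted p = 0.00604) passed in c-Kit KO cells too. In that fit Il9 (adjusted p = 0.0536) and Ccl17 (adjusted p = 0.0881) did not pass in c-Kit KO cells.

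**Figure D2:**
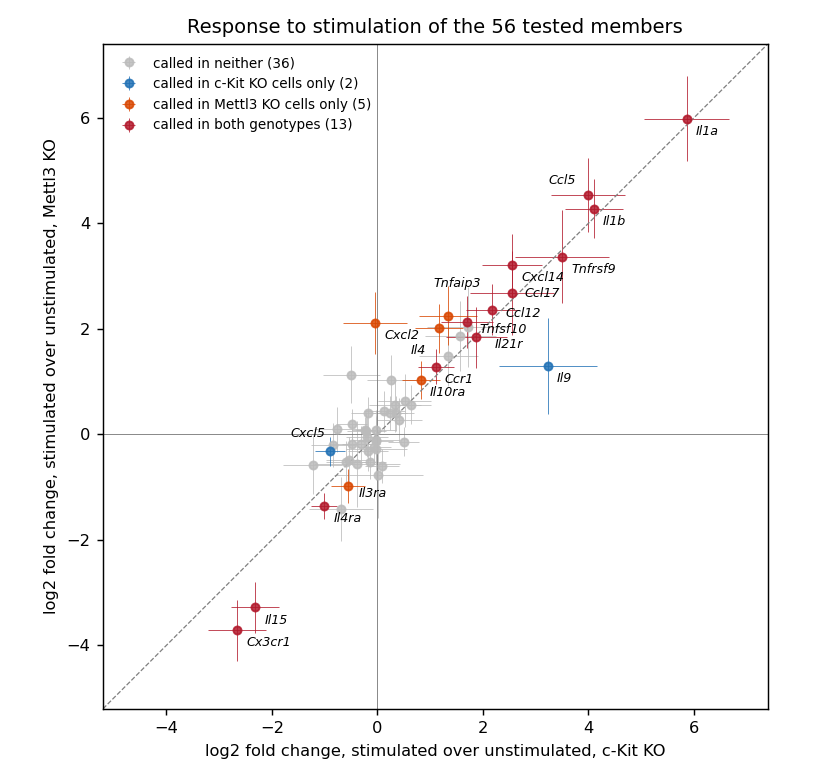
Log2 fold change with stimulation in c-Kit KO cells (x axis) and Mettl3 KO cells (y axis) for the 56 tested members, with bars of 1 standard error from edgeR and a dashed line of equal change. The 13 genes called in both genotypes lie along the line, from Cx3cr1 at -2.66 and -3.71 to Il1a at 5.87 and 5.98, while Cxcl2 lies above it and Il9 below it.

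Il1a and Il1b, the genes of the agonists of the Il1 receptor, rose most among the interleukins of this set. Normalized Il1a counts in replicates 1, 2 and 3 of c-Kit KO cells were 4.11, 10.3 and 11.7 without and 273, 207 and 1103 with stimulation. In Mettl3 KO cells they were 6.09, 14.0 and 14.8 without and 336, 1164 and 723 with stimulation. Every resting library thus lay at the level of the negative controls, and every stimulated library lay far above it, with no overlap. The log2 fold change of Il1a was 5.87 (SE 0.81, adjusted p = 0.000607) in c-Kit KO and 5.98 (SE 0.80, adjusted p = 0.000364) in Mettl3 KO cells, and since its resting counts are background these folds have no exact size. Il1b had 30.1, 55.1 and 46.7 normalized counts at rest in c-Kit KO and 27.4, 40.6 and 37.3 in Mettl3 KO cells. These counts were low, and in replicates 1 and 2 of resting Mettl3 KO cells they did not exceed the highest negative control, so the fold in that genotype is uncertain in size. It reached 383, 455 and 1449 in stimulated c-Kit KO and 462, 579.5 and 997 in stimulated Mettl3 KO cells. The groups did not overlap, and replicate 3 was the highest of the stimulated libraries in both genotypes. Its log2 fold change was 4.11 (SE 0.55, adjusted p = 0.000607) and 4.27 (SE 0.56, adjusted p = 0.000293). Without replicate 3 of stimulated c-Kit KO cells, the c-Kit KO values were 4.73 for Il1a and 3.24 for Il1b, and both calls held.

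Both genes lie next to each other on chromosome 2 of GRCm39 on the minus strand, Il1a from 129140291 to 129152098 and Il1b from 129206490 to 129213059. To show the sequence before a start of genes that rose together, the exon-free stretch before a RefSeq start is given for Il1b, Tnfrsf9, Ccl12 and Ccl17, which rose in both genotypes. Ccr1 and Il21r have stretches of like length, which held no match to any of the motifs searched and are not printed. The windows come from RefSeq (GRCm38.p6) and were placed on GRCm39 by exact match, and each is written 5′ to 3′ on the strand of its gene, with matches to the NFAT core GGAAAA in capitals, on either strand.
Il1b, chr2:129213060-129213309, minus strand: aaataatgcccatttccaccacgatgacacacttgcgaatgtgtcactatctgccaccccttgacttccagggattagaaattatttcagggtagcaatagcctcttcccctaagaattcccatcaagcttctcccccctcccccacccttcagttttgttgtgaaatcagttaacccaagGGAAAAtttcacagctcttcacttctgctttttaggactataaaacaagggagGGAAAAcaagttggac
Tnfrsf9, chr4:151004362-151004611, plus strand, within the annotated gene but outside its exons: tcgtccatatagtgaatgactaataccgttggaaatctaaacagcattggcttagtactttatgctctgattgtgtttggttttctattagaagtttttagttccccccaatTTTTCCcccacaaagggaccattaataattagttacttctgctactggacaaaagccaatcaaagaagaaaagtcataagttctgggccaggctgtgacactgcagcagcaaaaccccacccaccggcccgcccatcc
Ccl12, chr11:81992421-81992644, plus strand: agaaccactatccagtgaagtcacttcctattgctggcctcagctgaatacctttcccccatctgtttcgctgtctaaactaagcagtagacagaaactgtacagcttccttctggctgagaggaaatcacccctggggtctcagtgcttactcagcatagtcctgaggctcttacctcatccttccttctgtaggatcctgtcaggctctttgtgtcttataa
Ccl17, chr8:95536831-95537074, plus strand, within the annotated gene but outside its exons: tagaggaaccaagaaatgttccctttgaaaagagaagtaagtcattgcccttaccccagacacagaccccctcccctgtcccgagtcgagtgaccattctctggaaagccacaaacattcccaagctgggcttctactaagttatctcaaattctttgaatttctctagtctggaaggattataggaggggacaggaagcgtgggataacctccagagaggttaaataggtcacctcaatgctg

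Il1b held 2 matches to GGAAAA, beginning 69 and 16 bases before the start, Tnfrsf9 held 1 on the opposite strand, 138 bases before the start, and Ccl12 and Ccl17 held none. None of these 4 stretches held a match to the AP-1 sequence TGANTCA or to the NF-kB consensus, although the 300-base window of the other RefSeq start of Tnfrsf9 held both. Promoter windows of 300 bases were found for 68 of the 90 members, 85 windows in all. Of the 50 windows of tested members, 26% held GGAAAA, against 23.4% of all 32851 windows, 14% held TGANTCA, against 7.81%, and 18% held the NF-kB consensus, against 4.51%. Of the 11 members called in both genotypes that had a window, 2 held the NF-kB consensus, 2 held GGAAAA and 2 held TGANTCA. A match is a description of letters and no evidence of binding.

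Il4, the cytokine that directs type 2 responses and IgE switching, rose in Mettl3 KO cells. Its normalized counts were 167, 318 and 189 at rest and 1142, 662 and 908 after stimulation in these cells, and 203, 185 and 206 against 338, 201 and 799 in c-Kit KO cells. For Mettl3 KO cells the groups were separate, whereas in c-Kit KO cells replicate 2 after stimulation stayed within the resting range. By edgeR, the log2 fold change was 2.01 (SE 0.46, adjusted p = 0.00633) in Mettl3 KO and 1.17 (SE 0.45, adjusted p = 0.0919) in c-Kit KO cells. The difference between these responses was 0.84 (SE 0.63, adjusted p = 0.993), and the c-Kit KO value fell to 0.44 without replicate 3 of the stimulated cells.

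Il9, a growth factor for mast cells and T cells, was called in c-Kit KO cells, where 1 library stood far above the rest. Its normalized counts were 12.3, 26.4 and 14.4 at rest and 29.7, 39.3 and 431 after stimulation, and in Mettl3 KO cells 18.3, 19.6 and 13.0 against 19.8, 61.5 and 43.9. Replicate 3 of stimulated c-Kit KO cells stood apart, and the other stimulated libraries lay just above rest. As fitted, the log2 fold change in c-Kit KO cells was 3.23 (SE 0.92, adjusted p = 0.0321), but 0.96 without that library, which ended the call, as leaving out any resting c-Kit KO library did, and the adjusted p was 0.0536 with the replicate number as a block. In Mettl3 KO cells it was 1.30 (SE 0.91, adjusted p = 0.322).

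Il15, a cytokine that maintains natural killer cells and memory T cells, fell in both genotypes. Resting c-Kit KO cells had 125, 140.0 and 86.1 normalized counts and stimulated ones 42.4, 16.1 and 12.5. Resting Mettl3 KO cells had 134, 144 and 80.7 and stimulated ones 9.91, 13.5 and 13.2. All resting libraries exceeded all stimulated ones, and apart from replicate 1 of c-Kit KO cells the stimulated counts were at background. Il15 fell by 2.32 on the log2 scale in c-Kit KO (SE 0.45, adjusted p = 0.00451) and by 3.28 in Mettl3 KO cells (SE 0.48, adjusted p = 0.000524). Without replicate 1 of stimulated c-Kit KO cells, the c-Kit KO value was -3.03. The remaining tested interleukins, Il12b, Il25 and Il27, did not pass in either genotype, so that 3 of 8 tested interleukins rose and 1 fell in each genotype.

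Of 11 tested receptors for interleukins, 1 rose and 1 fell in c-Kit KO cells, and 2 rose and 2 fell in Mettl3 KO cells. Il4ra, the chain shared by the receptors for Il4 and Il13, had 2190.1, 2529 and 2049 normalized counts at rest and 1198, 1190.4 and 989.8 after stimulation in c-Kit KO cells. For Mettl3 KO cells it went from 2997, 2167 and 1897 to 695, 1002 and 1059. Each stimulated library lay under every resting library, and Il4ra fell by 1.00 (SE 0.25, adjusted p = 0.0169) and by 1.36 (SE 0.25, adjusted p = 0.00162) on the log2 scale. Il3ra, which binds the cytokine these cultures grow in, had counts of 137, 204 and 224 at rest and 59.5, 128 and 101 after stimulation in Mettl3 KO cells, without overlap. In c-Kit KO cells the counts were 181, 171 and 241 against 165, 122 and 114, again without overlap. It fell by 0.97 (SE 0.33, adjusted p = 0.0394) in Mettl3 KO cells, a call that was lost without any 1 of 5 libraries, and its log2 fold change was -0.56 (SE 0.32, adjusted p = 0.260) in c-Kit KO cells.

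**Figure D3:**
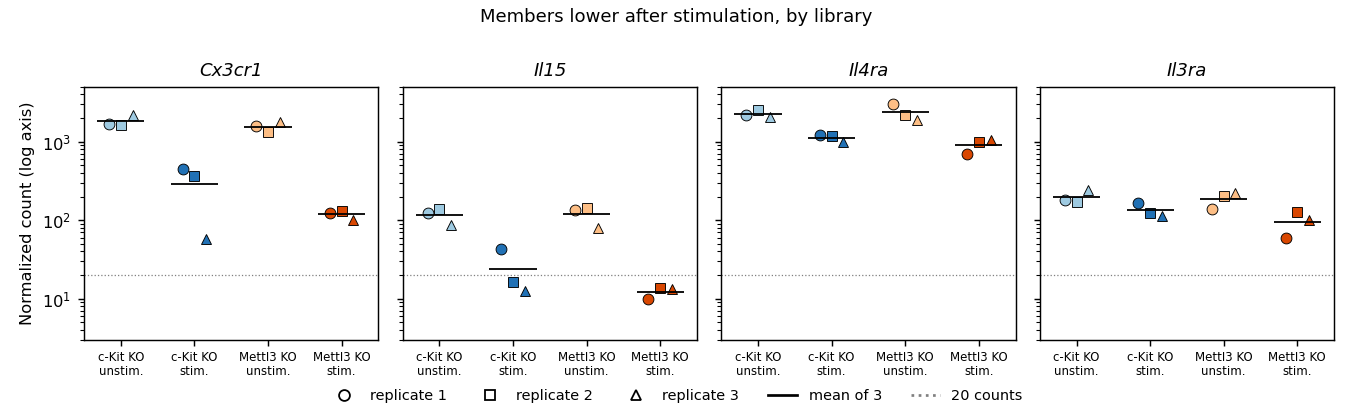
Normalized counts (log axis) of Cx3cr1, Il15, Il4ra and Il3ra in each of the 12 libraries, with the group mean as a bar and 20 counts as a dotted line. Stimulated libraries lie below resting libraries of their genotype in each panel, and Il3ra was called lower in Mettl3 KO cells alone.

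Il21r rose in both genotypes and Il10ra in Mettl3 KO cells. Il21r, the receptor for the T cell cytokine Il21, had 13.7, 26.4 and 22.4 counts at rest and 49.8, 47.4 and 133 after stimulation in c-Kit KO cells, and 21.3, 25.2 and 17.4 against 44.1, 38.1 and 144 in Mettl3 KO cells. Replicate 3 was the highest stimulated library in both genotypes, and the groups did not overlap. Il21r exceeded the highest negative control in 6 of 12 libraries, so the size of its folds is uncertain. The log2 fold change was 1.87 (SE 0.58, adjusted p = 0.0400) and 1.84 (SE 0.58, adjusted p = 0.0294), and fell to 1.20 and 0.96 without replicate 3 of the stimulated cells of that genotype. Il10ra, the ligand-binding chain for Il10, had 665, 691 and 415 counts at rest and 964, 1555 and 1110.0 after stimulation in Mettl3 KO cells, and 485, 846 and 482 against 696, 1513 and 1008 in c-Kit KO cells. Its log2 fold change was 1.03 (SE 0.36, adjusted p = 0.0431) in Mettl3 KO and 0.83 (SE 0.35, adjusted p = 0.122) in c-Kit KO cells, where the groups overlapped. The Mettl3 KO call was lost without any 1 of 9 libraries. With the replicate number as a block the c-Kit KO value passed too (adjusted p = 0.0238).

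Il1r2, the decoy receptor for Il1, and Il1rap, the accessory chain of the Il1 and Il33 receptors, differed more between replicates than with stimulation. Il1r2 had 221, 1119 and 857 normalized counts at rest and 251, 776 and 662 after stimulation in c-Kit KO cells, and 73.0, 234 and 862 against 148, 201 and 445 in Mettl3 KO cells. Replicate 1 was the lowest in all 4 groups, and the log2 fold changes were -0.38 (SE 0.81) and -0.56 (SE 0.82). Il1rap had 91.8, 165 and 57.4 against 63.6, 98.9 and 60.8 in c-Kit KO cells, and 98.4, 99.3 and 36.4 against 239, 204 and 67.9 in Mettl3 KO cells. Its log2 fold change in Mettl3 KO cells was 1.13 (SE 0.54, adjusted p = 0.133), and 1.10 with the replicate number as a block (SE 0.33, adjusted p = 0.0196). Il18r1, the receptor for Il18, had a log2 fold change of -1.22 (SE 0.56, adjusted p = 0.145) in c-Kit KO cells, and -1.27 (SE 0.39, adjusted p = 0.0295) with the block. Il15ra, Il17ra, Il1r1 and Il27ra did not pass in either genotype, with or without the block.

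Ccl5 showed the largest fitted rise among the chemokines of this set. This attractant of T cells, eosinophils and monocytes had 13.7, 21.8 and 13.5 normalized counts at rest and 262, 82.7 and 439.6 after stimulation in c-Kit KO cells. In Mettl3 KO cells it had 27.4, 37.8 and 22.6 counts at rest and 1314, 412 and 304 after stimulation. Ccl5 exceeded the highest negative control in 7 of 12 libraries. Most of its resting counts were at background, so its folds have no exact size. No stimulated library overlapped with rest, and the stimulated libraries spread widely, with replicate 3 highest in c-Kit KO and lowest in Mettl3 KO cells. By edgeR, the log2 fold change was 4.00 (SE 0.70, adjusted p = 0.00287) and 4.54 (SE 0.70, adjusted p = 0.000652), or 3.39 without replicate 3 of stimulated c-Kit KO cells and 3.62 without replicate 1 of stimulated Mettl3 KO cells, and both calls held.

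Ccl12 and Ccl2 lie in 1 cluster on chromosome 11, Ccl2 from 81926397 to 81928279 and Ccl12 from 81992645 to 81994466, and both attract monocytes through Ccr2. Ccl12 went from 8.22, 11.5 and 16.1 to 31.8, 45.4 and 88.6 normalized counts in c-Kit KO cells, and from 17.2, 18.2 and 9.54 to 42.3, 102 and 85.3 in Mettl3 KO cells. Its resting counts were at background, its stimulated counts were above the negative controls in all 6 libraries, and the log2 fold change was 2.18 (SE 0.49, adjusted p = 0.0111) and 2.36 (SE 0.48, adjusted p = 0.00351). Ccl2 was present at rest, with 3511, 5852 and 2773 counts in c-Kit KO and 4706, 11231 and 2823 in Mettl3 KO cells. After stimulation it had 15067, 10318 and 5486 counts in c-Kit KO and 22291, 21730.2 and 8533 in Mettl3 KO cells. It was higher in 3 of 3 same-numbered pairs in each genotype, but replicate 3 was the lowest in every group and the groups overlapped. As fitted, the log2 fold change was 1.35 (SE 0.56, adjusted p = 0.116) and 1.49 (SE 0.56, adjusted p = 0.0606), and with the replicate number as a block 1.32 (SE 0.31, adjusted p = 0.00913) and 1.56 (SE 0.31, adjusted p = 0.00207), past the threshold in both genotypes. Ccl11 and Ccl8 of the same cluster were not detected.

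Ccl17, a ligand of Ccr4 on type 2 T cells, rose in Mettl3 KO cells in all replicates, from 14.2, 23.8 and 26.0 to 169, 97.2 and 145 normalized counts. In c-Kit KO cells it went from 23.3, 28.7 and 17.0 to 60.4, 18.2 and 323, so replicate 2 did not rise. Ccl17 exceeded the highest negative control in 8 of 12 libraries, so the size of its folds is uncertain. The log2 fold change was 2.68 (SE 0.80, adjusted p = 0.0244) in Mettl3 KO and 2.55 (SE 0.80, adjusted p = 0.0427) in c-Kit KO cells. The c-Kit KO value was 0.77 without replicate 3 of the stimulated cells, and its call was lost without any 1 of 10 libraries and with the replicate number as a block (adjusted p = 0.0881). Ccl22, the other ligand of Ccr4, had a log2 fold change of 1.04 (SE 0.46, adjusted p = 0.107) in Mettl3 KO cells and of 0.26 (SE 0.46) in c-Kit KO cells. Ccl21a, Ccl25, Ccl26 and Ccl6 did not pass in either genotype, which leaves 3 of 9 tested CC chemokines higher and 0 lower in each.

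Cxcl14, a chemokine of epithelia and antigen-presenting cells, rose from background in both genotypes. It had 11.0, 18.4 and 11.7 normalized counts at rest and 29.7, 105 and 107 after stimulation in c-Kit KO cells, and 11.2, 15.4 and 10.4 against 45.9, 162 and 134 in Mettl3 KO cells. Replicate 1 was the lowest stimulated library in both genotypes, and the groups did not overlap. By edgeR, the log2 fold change was 2.55 (SE 0.57, adjusted p = 0.0111) and 3.21 (SE 0.59, adjusted p = 0.00157). Cxcl2, which attracts neutrophils, had 11.0, 22.9 and 26.9 counts at rest and 24.4, 20.2 and 16.1 after stimulation in c-Kit KO cells. For Mettl3 KO cells it had 22.3, 26.6 and 10.4 at rest and 149.5, 80.0 and 24.0 after stimulation, so 2 of 3 stimulated Mettl3 KO libraries stood above all others. Cxcl2 exceeded the highest negative control in 4 of 12 libraries, so the size of its folds is uncertain. As fitted, the log2 fold change was -0.04 (SE 0.61, adjusted p = 0.977) in c-Kit KO and 2.12 (SE 0.59, adjusted p = 0.0175) in Mettl3 KO cells, or 1.40 without replicate 1 of stimulated Mettl3 KO cells, which ended the call. Cxcl5, which with Il9 was called in c-Kit KO cells alone and is a further neutrophil attractant, had 12.3, 22.9 and 18.8 counts against 9.54, 10.1 and 9.52 in c-Kit KO cells and 20.3, 18.2 and 17.4 against 17.1, 17.2 and 10.8 in Mettl3 KO cells. Its log2 fold change was -0.90 (SE 0.29, adjusted p = 0.0480) in c-Kit KO cells, but it exceeded the highest negative control in 0 of 12 libraries and the call was lost without any 1 of 10 libraries. Cxcl10, Cxcl11, Cxcl3 and Cxcl9, all at or near background, did not pass.

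**Figure D4:**
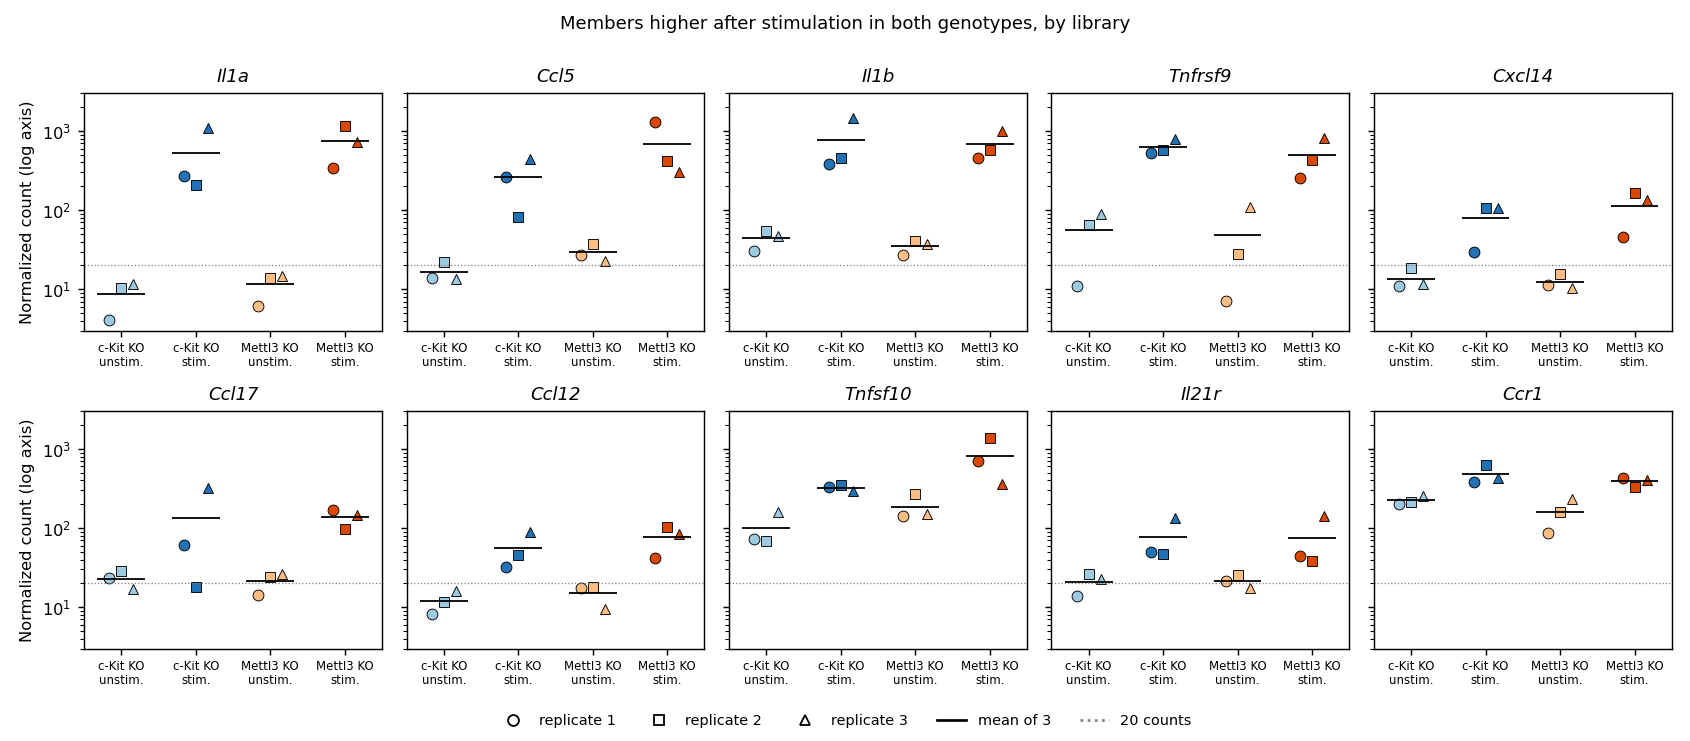
Normalized counts (log axis) in each of the 12 libraries for the 10 members higher after stimulation in both genotypes, with the group mean as a bar, symbols by replicate number and 20 counts as a dotted line. Resting libraries of Il1a, Ccl12 and Cxcl14 lie under the dotted line and stimulated ones above it, while in Ccl17 replicate 2 of stimulated c-Kit KO cells lies within the resting range.

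Of the chemokine receptors, Cx3cr1 fell and Ccr1 rose. Cx3cr1, the receptor for fractalkine, had 1692, 1633 and 2180.1 normalized counts at rest and 451, 365 and 57.1 after stimulation in c-Kit KO cells. In Mettl3 KO cells it had 1562, 1321 and 1774 at rest and 125, 130.4 and 100.2 after stimulation. The resting libraries of both genotypes lay close together and above every stimulated library, and among stimulated c-Kit KO libraries replicate 3 was far lower than the other two. Cx3cr1 fell by 2.66 (SE 0.55, adjusted p = 0.00644) and by 3.71 (SE 0.58, adjusted p = 0.000652) on the log2 scale. Ccr1, a receptor for Ccl3 and Ccl5 among others, went from 201, 216 and 252 to 387, 625 and 434 counts in c-Kit KO and from 87.2, 158 and 232 to 429, 329.7 and 405 in Mettl3 KO cells. The groups did not overlap, and the log2 fold change was 1.11 (SE 0.34, adjusted p = 0.0382) and 1.28 (SE 0.34, adjusted p = 0.0130). The other tested chemokine receptors, Ccr2, Ccr6, Ccr7, Ccr9, Ccrl2, Cxcr3 and Cxcr5, did not pass in either genotype. Cx3cl1, the ligand of Cx3cr1, was not detected.

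In the TNF family, Tnfrsf9 and Tnfsf10 rose. Tnfrsf9, the costimulatory receptor 4-1BB, had 11.0, 65.4 and 89.7 normalized counts at rest and 532, 572 and 800.0 after stimulation in c-Kit KO cells. For Mettl3 KO cells it had 7.10, 28.0 and 108 at rest and 254, 426 and 823 after stimulation. Replicate 3 was the highest and replicate 1 the lowest in all 4 groups, and no stimulated library overlapped with rest. The log2 fold change was 3.50 (SE 0.88, adjusted p = 0.0194) and 3.37 (SE 0.88, adjusted p = 0.0130), with standard errors of 0.55 in each genotype when the replicate number was a block, and it was 4.87 in Mettl3 KO cells without replicate 3 at rest. Its ligand Tnfsf9 did not pass in either genotype. Tnfsf10, the death ligand TRAIL, had 72.6, 67.7 and 158 counts at rest and 334, 347 and 292 after stimulation in c-Kit KO cells, and 141, 267 and 150.1 against 711, 1369 and 358 in Mettl3 KO cells. Every stimulated library lay above rest, and the log2 fold change was 1.70 (SE 0.49, adjusted p = 0.0321) and 2.13 (SE 0.49, adjusted p = 0.00648), the latter 1.52 without replicate 2 of the stimulated cells.

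Tnfaip3, the ubiquitin-editing enzyme A20 that restrains NF-kB, had 197, 155 and 102 normalized counts at rest and 650.4, 1047 and 469 after stimulation in Mettl3 KO cells. In c-Kit KO cells it had 192, 539 and 113 at rest and 567, 1066 and 499 after stimulation, so that replicate 2 was high at rest and the groups overlapped. By edgeR, the log2 fold change was 2.25 (SE 0.56, adjusted p = 0.0100) in Mettl3 KO and 1.34 (SE 0.55, adjusted p = 0.111) in c-Kit KO cells, where it was 1.51 (SE 0.33, adjusted p = 0.00604) with the block and 2.22 without replicate 2 at rest. Tnfaip8, a regulator of cell death, did not respond past the threshold. It had 3646, 6248 and 4051 counts against 3603, 6273 and 3763 in c-Kit KO cells and 4518, 7530.0 and 4094 against 4611, 6129 and 4128 in Mettl3 KO cells, with replicate 2 the highest in all 4 groups and log2 fold changes of -0.03 (SE 0.33) and -0.12 (SE 0.33). Tnfrsf12a, the receptor for Tweak, and Tnfrsf1b, the second TNF receptor, passed with the replicate number as a block and not without it. Tnfrsf12a had 45.2, 95.2 and 58.3 normalized counts at rest and 105, 348 and 141 after stimulation in c-Kit KO cells, and 114, 178 and 36.4 against 344, 688 and 156 in Mettl3 KO cells. Tnfrsf1b had 6.85, 37.9 and 11.7 against 33.9, 109 and 44.0 in c-Kit KO cells, and 16.2, 49.0 and 8.68 against 69.4, 166 and 58.8 in Mettl3 KO cells. Replicate 2 was the highest in all 4 groups for both genes, and the stimulated library was the higher of each same-numbered pair. The log2 fold change of Tnfrsf12a was 1.45 in c-Kit KO (SE 0.39, adjusted p = 0.0171) and 1.83 in Mettl3 KO cells (SE 0.38, adjusted p = 0.00285) in that fit. That of Tnfrsf1b was 1.81 (SE 0.33, adjusted p = 0.00264) and 2.14 (SE 0.32, adjusted p = 0.000375). Tnfrsf14, the receptor HVEM, had 67.0, 64.3 and 14.8 counts at rest and 16.2, 23.4 and 14.9 after stimulation in Mettl3 KO cells, so that replicates 1 and 2 were lower and replicate 3 was at background in both, and the groups overlapped. Its log2 fold change there was -1.42 (SE 0.61, adjusted p = 0.0969), and -1.26 (SE 0.47, adjusted p = 0.0495) with the block. Tnfrsf4 did not pass.

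With the replicate number as a block, 19 members were called in c-Kit KO cells, 14 higher and 5 lower, and 23 in Mettl3 KO cells, 18 higher and 5 lower, while 28.8% and 42.4% of all tested genes were called. In this fit 17 members were called in both genotypes, and the share of all tested genes called in both was not counted either. Leaving out single libraries moved the count of 15 in c-Kit KO cells to 6 without replicate 1 at rest, to 9 without replicate 2 at rest and to 6 without replicate 3 after stimulation. The calls of Ccl5, Cx3cr1, Il15, Il1a and Il1b in c-Kit KO cells held without any single library, 5 of 15. In Mettl3 KO cells 13 of 18 calls did, namely those 5 and Ccl12, Ccr1, Cxcl14, Il4, Il4ra, Tnfaip3, Tnfrsf9 and Tnfsf10.

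The libraries that decided a call were mostly those of the genotype compared. In c-Kit KO cells, leaving out replicate 1 at rest ended the calls of Ccl12, Ccl17, Ccr1, Cxcl14, Il21r, Il4ra, Il9, Tnfrsf9 and Tnfsf10. Leaving out replicate 3 after stimulation ended the same calls except that of Cxcl14, and also that of Cxcl5. Replicate 2 at rest decided those of Ccl17, Ccr1, Cxcl5, Il21r, Il9, Tnfrsf9 and Tnfsf10, and replicate 3 at rest those of Ccl17, Ccr1, Cxcl5, Il21r and Il9. Of the remaining stimulated c-Kit KO libraries, replicate 1 decided the calls of Cxcl5 and Tnfsf10, and replicate 2 those of Ccr1, Cxcl5 and Tnfsf10. Those of Ccl17, Cxcl5 and Il21r, and that of Ccr1, were also lost without 1 or more libraries of the Mettl3 KO groups, which enter the fit through the shared estimate of the spread. For Mettl3 KO cells, the calls of Ccl17 and Il21r were lost without any single resting library of that genotype, and without replicate 1 and replicate 3 of the stimulated cells, respectively. The call of Cxcl2 was also lost without replicate 3 at rest, and that of Il3ra without replicates 2 or 3 at rest, replicates 1 or 3 after stimulation or replicate 1 of resting c-Kit KO cells. Calls were gained as well, by Il4 in c-Kit KO cells without replicate 2 after stimulation, by Tnfaip3 in c-Kit KO cells without replicate 2 at rest, and in Mettl3 KO cells by Ccl2 without replicate 2 at rest, at 2.22, or replicate 3 after stimulation and by Il1rap without replicate 3 after stimulation.

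Other genes of these pathways were described in the same way. The 16 family genes that the rule leaves out include Il6, Il13 and Tnf but also the receptors Il1rl1 and Ccr3. Of these 16, 13 and 15 were called higher in c-Kit KO and Mettl3 KO cells, with median log2 fold changes of 3.07 and 5.09. They were left out with earlier results of these data known, so their values are no independent yardstick for the members. Of 16 tested genes of other cytokines and growth factors, 3 were higher and 0 lower in c-Kit KO cells, and 6 were higher and 1 lower in Mettl3 KO cells. The 10 JAK-STAT signalling genes gave 0 higher and 1 lower in c-Kit KO and 1 higher and 1 lower in Mettl3 KO cells, and the 9 NF-kB signalling genes 1 and 4 higher with 0 lower. Among markers of other cells, 0 of 7 tested macrophage or monocyte genes, 0 of 2 neutrophil genes, 0 of 2 dendritic cell genes and 0 of 1 B cell gene were called with stimulation in either genotype, and the panel held no gene of the basophil and T cell lists. The single tested gene of the eosinophil list, Siglecf, rose with stimulation in both genotypes. The normalized counts summed over that list were 57.5 to 68.2 at rest and 61.5 to 105 after stimulation in c-Kit KO cells, and 50.3 to 82.5 and 95.5 to 169 in Mettl3 KO cells. Of the mast cell list 1 gene rose in each genotype, and 3 and 4 fell. The part of these shifts in the members' changes was not tested.

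Genotype was compared next. Without stimulation, 0 members differed by genotype at an adjusted p under 0.05 by edgeR or by DESeq2, and by edgeR 0% of all genes did. At the study's thresholds 1 member passed, against 1.28% of all genes, and 1 had an unadjusted p under 0.05. It was Ccr7, a homing receptor of dendritic and T cells. Its normalized counts of 21.3, 26.6 and 16.5 in Mettl3 KO and 8.22, 14.9 and 13.5 in c-Kit KO cells were near background, above the highest negative control in 1 of 12 libraries. The log2 difference was 0.77 (SE 0.29, adjusted p = 0.997 by edgeR). The median log2 difference over the members was 0.05, against 0.08 over all genes.

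With stimulation 0 members passed an adjusted p under 0.05 either, against 0.917% of all genes, while 7 had an unadjusted p under 0.05. The smallest adjusted p was 0.134 by edgeR and 0.115 with the block, and DESeq2 called 1 member, Cxcl2. At the study's thresholds, 5 members were higher in libraries labelled Mettl3 KO, where 13% of all genes were, and 2 were lower, where 1.1% of all genes were. Higher were Ccl5, Cxcl2, Il1rap, Il4 and Tnfsf10, and lower were Cx3cr1 and Il9. With trimmed mean of M values (TMM) scaling 2 members were higher and 3 lower at the same thresholds, and with DESeq2 3 were higher and 3 lower, so the balance of directions depends on the scaling. The median log2 difference was 0.22 over the members and 0.20 over all genes with housekeeping scaling, but 0.04 and 0.02 with TMM scaling.

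The log2 difference of stimulated Mettl3 KO over stimulated c-Kit KO cells was 2.06 for Cxcl2 (SE 0.58, adjusted p = 0.134), 1.37 for Ccl5 (SE 0.61, adjusted p = 0.329) and 1.33 for Tnfsf10 (SE 0.48, adjusted p = 0.217). It was 1.19 for Il1rap (SE 0.54, adjusted p = 0.331) and 1.02 for Il4 (SE 0.45, adjusted p = 0.317). For the lower genes it was -1.29 in Cx3cr1 (SE 0.53, adjusted p = 0.280) and -2.01 in Il9 (SE 0.86, adjusted p = 0.296). Tnfsf10 was the only 1 of these 7 whose stimulated groups did not overlap, with 292 to 347 counts in c-Kit KO and 358 to 1369 in Mettl3 KO cells. Outside these 7, the stimulated groups of Cxcl5 and Il4i1, both near background, did not overlap either. The share of all genes without overlap was not counted. The same-numbered pairs were unequal. Among the 5 higher genes, the pair of replicate 3 had the lowest value, and its log2 difference was 0.55 for Cxcl2, -0.53 for Ccl5, 0.30 for Tnfsf10, 0.16 for Il1rap and 0.19 for Il4, while the pairs of replicates 1 and 2 ran from 1.04 to 2.57. In Cx3cr1 the pair of replicate 3 went up by 0.80 where the other pairs were at -1.84 and -1.48.

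Left-out libraries bear on several of these values. Without replicate 3 of stimulated Mettl3 KO cells, the library that a supplement of the study numbers 5, Cxcl2 and Tnfsf10 passed an adjusted p under 0.05 and the count of called members was 2. Without replicate 3 of stimulated c-Kit KO cells Cx3cr1 passed, at -1.78, the difference of Il9 turned to 0.26, and those of Ccl5 and Il4 were 1.97 and 1.75. Without replicate 1 of stimulated Mettl3 KO cells the differences of Ccl5 and Cxcl2 were 0.45 and 1.34, and without replicate 2 that of Tnfsf10 was 0.72. For Il1a and Il1b the genotype difference with stimulation was 0.49 (SE 0.62) and -0.17 (SE 0.48).

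**Figure D5:**
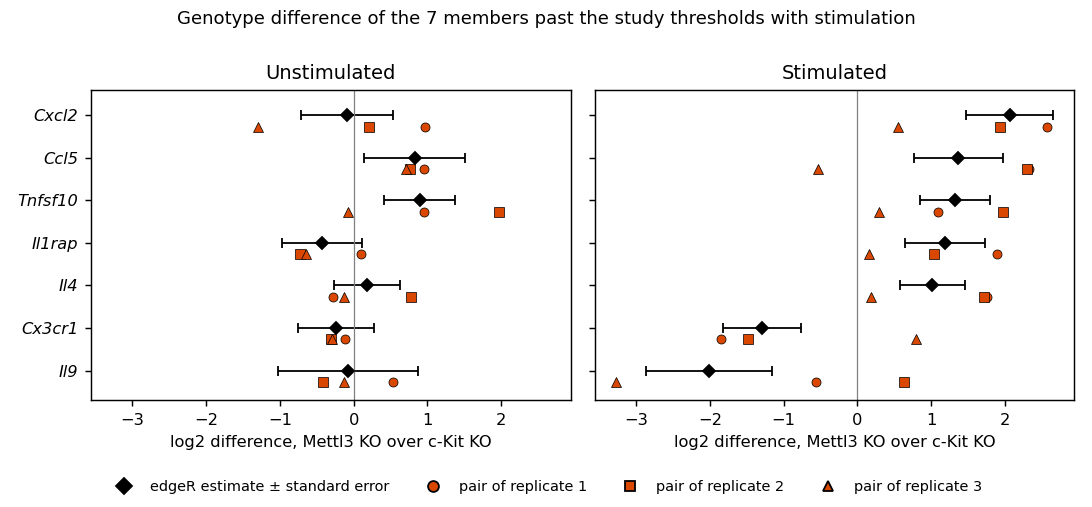
Log2 difference of Mettl3 KO over c-Kit KO cells for the 7 members past the study's thresholds with stimulation, at rest (left) and after stimulation (right), as the edgeR estimate with 1 standard error (black) and for each same-numbered pair (orange). After stimulation the pair of replicate 3 lies nearest to 0 or on the other side of it for the 5 upper genes, at -0.53 to 0.55.

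The interaction of genotype and stimulation asked whether the response itself differed. At the study's thresholds 1 member passed, Cxcl2, with a difference of 2.15 on the log2 scale (SE 0.85, adjusted p = 0.993), against 4.04% of all genes. An adjusted p under 0.05 was met by 0 members with edgeR and with DESeq2 and by 0% of genes with edgeR, and the smallest value with the block was 0.699. In Cxcl2 the interaction was positive in 3 of 3 pairs, at 1.61, 1.73 and 1.84. However, Cxcl2 exceeded the highest negative control in 4 of 12 libraries. The pair of replicate 3 rests on normalized counts of 10.4 to 26.9, near those of the negative controls. Over the 13 members called in both genotypes the interaction ran from -1.05 (Cx3cr1) to 0.66 (Cxcl14). In Mettl3 KO cells 8 of the 10 rises and all 3 falls were the larger estimate, but none of these differences passed the test. The interaction was positive for 36 of the 56 tested members and for 331 of all 545 tested genes. Its median over the members was 0.13 with housekeeping scaling and 0.03 with TMM scaling, against 0.11 and 0.03 over all genes.

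For 10 of the 56 tested members the same number was the highest in all 4 groups, against 14.9% of all 545 genes, and for 7 of these 10 it was replicate 2. For 11 of 56 the same number was the lowest in all 4 groups, against 16.7% of all genes, and for 6 of these it was replicate 3. Tnfaip8, Il10ra, Tnfrsf12a, Tnfrsf1b, Ccrl2 and Ccl6 are among the former, and Ccl2, Tnfaip3 and Il1rap among the latter.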

How the data were processed

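RNA (40 ng per library) of 12 libraries was counted on the nCounter Myeloid Innate Immunity Panel of 768 probes. The deposited values are raw barcode counts per probe, with no normalization by the authors, and barcodes are counted without amplification. The study's thresholds are a 1.5-fold change and an unadjusted p of 0.05. Here counts were scaled by the geometric mean of 20 housekeeping probes, whose class was taken from the order of the rows. The 545 of 734 endogenous probes with at least 20 counts in at least 3 libraries were tested with edgeR 4.0.16 (R 4.3.3; quasi-likelihood test, robust option, 4 groups in 1 model) with Benjamini-Hochberg adjustment. Endogenous totals were 504238 to 737910 counts, and the number of libraries limits the precision.

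The genes described singly were those called and those with the smallest p past the study's thresholds in each comparison. Tested members with the highest mean counts were described as well, and so were a few others, such as Tnfrsf12a and Tnfrsf1b. Members and lists were chosen with earlier results of these data known. The study describes its replicates as independent, and p-values measure the spread between these libraries. Replicate numbers pair libraries: deviations from the group means correlated in 18 of 18 same-numbered pairs (r = 0.136 to 0.521, mean 0.334). The mean was -0.168 in 36 pairs of different number, which follows largely from the former, because deviations within a group cancel out. The fit with the replicate number as a block is therefore given where it changes a call. Alternatives were TMM, DESeq2 1.42.0, limma 3.58.1, other filters, background subtraction, other samples in the fit and leaving out libraries. The test was also run on simulated counts without a replicate effect, unlike the libraries here, and no conclusion is drawn from that run. Promoter windows of 300 bases came from RefSeq. Lists of other cytokine, JAK-STAT and NF-kB genes and of markers of mast, macrophage or monocyte, neutrophil, eosinophil, dendritic, B, basophil and T cells were counted. No probe target sequences were used here.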

Additional observations from a re-analysis of the deposited data

Results flagged for a closer look

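Ccr9, the receptor for Ccl25, differed in the opposite direction between the genotypes at rest and after stimulation. The mean log2 difference of Mettl3 KO over c-Kit KO cells over the same-numbered pairs was -0.41 without stimulation, with every pair negative, and 0.24 with stimulation, with every pair positive. Tested as the interaction of genotype and stimulation, the change of direction did not pass (0.68 on the log2 scale, SE 0.41, adjusted p = 0.993 by edgeR and 0.793 with the block), and the gene's normalized counts of 12.5 to 27.5 were near those of the negative controls.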

How the results depend on the processing

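Direction and side of the threshold were kept in 577 of the planned and 541 of the added comparisons of a named gene's value with an alternative setting. Calls were lost in 107 and 74 of them and gained in 25 and 8. The 15 members called in c-Kit KO cells became 9 with background subtracted and 3 with unmoderated limma on the groups compared only. The latter gave 13 in place of 22 at the study's thresholds, and 7 in place of 18 and 15 in place of 23 in Mettl3 KO cells. Leaving out replicates gave 6 to 14 called for c-Kit KO stimulation, 15 to 24 past the study thresholds for c-Kit KO stimulation, 8 to 20 called for Mettl3 KO stimulation, 18 to 24 past the study thresholds for Mettl3 KO stimulation, 0 to 4 past the study thresholds for genotype without stimulation, 0 to 2 called for genotype with stimulation, 2 to 9 past the study thresholds for genotype with stimulation and 0 to 4 past the study thresholds for the interaction. For genotype without stimulation, the 1 member past the study's thresholds became 0 with a mean count of at least 50, with counts under 20 set to 20 and with unmoderated limma. For genotype with stimulation, DESeq2 called 1 member in place of 0, and 7 past the study's thresholds became 4 with a mean count of at least 50, with limma and with the groups compared only, and 1 with unmoderated limma. For the interaction, 1 became 2 with TMM and DESeq2, 3 with no filter, and 0 with a mean count of at least 50 and with limma. With the replicate number as a block, the 15 and 18 called members became 19 and 23, and 1 became 2 for genotype without stimulation and for the interaction. With the block and without replicate 3 of stimulated Mettl3 KO cells, genotype gave 3 members without stimulation and 11 with it at the study's thresholds, 2 called with it, and 2 for the interaction. The log2 difference of Ccr7 without stimulation turned to -0.042 with counts under 20 set to 20. That of Il9 with stimulation turned to 0.21 without replicate 3 and to 0.26 without replicate 3 of stimulated c-Kit KO cells, in a range of -2.85 to 0.26 when replicates or libraries were left out. The causes were not tested. Members near the negative controls have no reliable fold.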
